A study of Mus musculus with 9 samples.

Results

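Rbfox, Khdrbs, Musashi and Ptbp proteins bind RNA and set how neural transcripts are spliced, kept or translated. A set of 10 mouse genes that encode such proteins, Rbfox1, Rbfox2, Rbfox3, Khdrbs1, Khdrbs2, Khdrbs3, Msi1, Msi2, Ptbp1 and Ptbp2, was taken by name from the deposited expression tables, where it accounts for 28 of 30978 RefSeq transcripts and 10 of 23494 gene units. Each gene was represented by the transcript with the highest mean level, and its other transcripts were set beside it. The series asks what happens to RNA in the developing cortex when Sfpq, a nuclear RNA-binding protein, is removed. The genotypes compared, in the cerebral cortex of E13.5 embryos and with 3 libraries each, were homozygous Sfpq knockout, heterozygous Sfpq knockout and control. Each library is taken as a separate embryo throughout. All embryos were on a strain given as C57BL/6+C57BL/6J+CBA, and the tissue was labelled as a mix of neural stem cells and neurons. What drives the knockout, in which cells, and which part of Sfpq it removes are not stated by the labels. The extraction protocol gives the heterozygous genotype in place of the homozygous one, and the groups follow the titles, genotype labels and design text. Ribosomal RNA was removed from total RNA, so RNA with and without a poly(A) tail was sequenced.

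At this stage radial glia line the ventricle, divide and give rise to intermediate progenitors and neurons. The Musashi proteins are known from neural progenitors, where they bind messenger RNAs and control their translation. Ptbp1 represses neuronal exons in progenitors, and the change from Ptbp1 to Ptbp2 accompanies neuronal differentiation. The Rbfox proteins bind UGCAUG next to alternative exons. Rbfox3 is the neuronal antigen NeuN. The Khdrbs proteins are the STAR-family splicing factors Sam68 (Khdrbs1), SLM1 (Khdrbs2) and SLM2 (Khdrbs3). Within the brain SLM1 and SLM2 are expressed mainly in neurons.

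Levels are RPKM values (reads scaled to 1 kb of transcript length and to 1e6 reads of the library). They correct for transcript length and library size only, so comparisons between libraries depend on the scaling, and other scalings are given below. Changes are differences of log2(RPKM + 0.5), fitted with limma over the 12291 genes that averaged 0.5 RPKM or more, and a gene was called when its Benjamini-Hochberg adjusted p was below 0.05. The estimated depth, the best fit within a preset range of depths, lay between 168 M and 204 M reads per library (M, 1e6). All 10 members entered the fit, Rbfox3 only through its level in heterozygous and control libraries. Sfpq, by its most abundant transcript NR_045010, which RefSeq lists as non-coding, averaged 27.4 RPKM in homozygous, 172 RPKM in heterozygous and 201 RPKM in control cortex. Its log2 change was -2.85 in homozygous against control cortex (adjusted p 1.30e-09), and in heterozygous against control cortex it was -0.22 and was not called (adjusted p 0.709). Whether the transcript measured lies in the removed part is not known, so its residual level does not measure how complete the knockout was. The labelled tissue showed the radial glial factor Pax6 at 30.4 RPKM in homozygous, 28.9 RPKM in heterozygous and 29.8 RPKM in control cortex. The neuronal tubulin Tubb3 stood at 318 RPKM in homozygous, 350 RPKM in heterozygous and 364 RPKM in control cortex. Neither gene stands for its cell type. Of 14 radial glial markers 4 were lower in homozygous cortex, among them Fabp7 (736 RPKM against 995 RPKM in control cortex). Another 2 were higher, among them Vim (701 RPKM against 565 RPKM).

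In homozygous against control cortex 5 of the 10 genes were lower and none was higher. Msi2, Khdrbs2 and Rbfox3 fell the most, to 23.9%, 18.9% and 10.8% of their control means. Ptbp2 and Khdrbs3 fell to 76.1% and 82.2% of theirs. Rbfox1, Rbfox2, Khdrbs1, Msi1 and Ptbp1 did not pass the test. Among all genes tested 19.9% were called lower and 14.4% higher, and the median log2 change was -0.29 over the 10 members and -0.01 over all genes. The homozygous and control libraries did not overlap for those 5 genes, all lower, where 25.6% of all genes were lower without overlap. Under median centring of the libraries the calls over all genes were 1975 lower and 2974 higher, and under quantile normalization 2186 lower and 2596 higher, against 2445 lower and 1764 higher as deposited. The 5 calls held under both scalings. Cortex is a mix of cells, so fewer cells of a type and less RNA per cell cannot be told apart in any of these values.

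**Figure D1:**
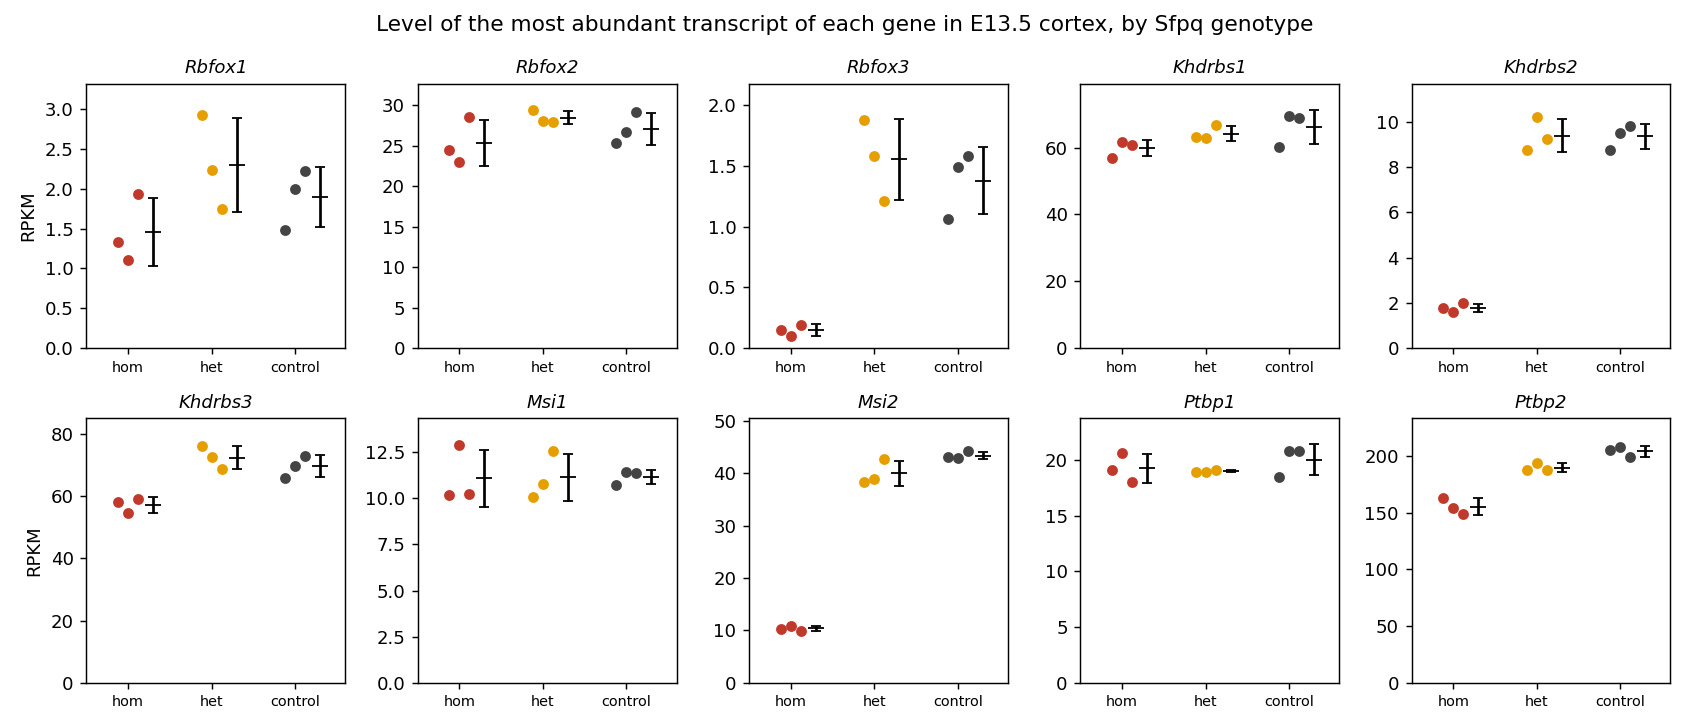
RPKM of the most abundant transcript of each of the 10 genes, 1 point per embryo, in homozygous (hom), heterozygous (het) and control cortex. The bar beside the points is the mean and SD of 3 embryos. The homozygous points of Msi2 lie between 9.94 and 10.9 RPKM, below every heterozygous and control point, while those of its paralog Msi1 overlap the points of the other genotypes.

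The Musashi pair came apart in homozygous cortex. Msi2, whose protein binds messenger RNAs in stem and progenitor cells, had 10.3, 10.9 and 9.94 RPKM in homozygous, 38.3, 39.0 and 42.7 RPKM in heterozygous and 43.0, 42.9 and 44.2 RPKM in control cortex for its long transcript, NM_054043. Every homozygous embryo was far below all others, and the heterozygous embryos sat just below the controls. The log2 change was -2.01 (SE 0.06, limma adjusted p 3.82e-09) in homozygous against control and -1.89 (SE 0.06, adjusted p 7.38e-09) in homozygous against heterozygous cortex. Msi1, the other Musashi gene, had 10.2, 12.9 and 10.2 RPKM in homozygous, 10.1, 10.8 and 12.6 RPKM in heterozygous and 10.7, 11.4 and 11.4 RPKM in control cortex. Its groups overlapped, and its log2 change in homozygous against control cortex was -0.02, with a 95% interval from -0.24 to 0.20 (adjusted p 0.901). The ratio of Msi2 to Msi1, ordered by size, was 0.849, 0.973 and 1.01 in homozygous embryos, against 3.75, 3.89 and 4.0 in control embryos. In homozygous cortex the long Msi2 transcript and Msi1 thus stood at about the same level, while in control cortex the long Msi2 transcript was the more abundant one. The short Msi2 transcript, which averaged 7.49 RPKM in homozygous cortex, is not in this ratio, so the ratio does not compare all RNA of the 2 genes. The exact two-sided permutation p was 0.1, the smallest that 3 against 3 embryos allow, and 0.2 after adjustment over the 18 family ratios tested.

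Msi2 has another RefSeq transcript, NM_001201341, which starts in the same first exon and ends early. In the GENCODE M21 annotation (GRCm38) the long transcript has 14 exons over 374 kb and the short one 8 exons over 32.2 kb, and they share 323 exonic bases, which are 46.5% of the short transcript and 17.4% of the long one. Their coding sequences have the same first 313 bases and then part. The short one codes for 158 residues and the long one for 346. The stretch around that point is printed because it separates the 2 RNAs; it gives coding bases 284 to 477, counted from the A of the start codon, with the shared bases in lower case and the bases after the sequences part in capitals. The short transcript stops at the end of this stretch and the long one reads on.
Msi2 short transcript (chromosome 11): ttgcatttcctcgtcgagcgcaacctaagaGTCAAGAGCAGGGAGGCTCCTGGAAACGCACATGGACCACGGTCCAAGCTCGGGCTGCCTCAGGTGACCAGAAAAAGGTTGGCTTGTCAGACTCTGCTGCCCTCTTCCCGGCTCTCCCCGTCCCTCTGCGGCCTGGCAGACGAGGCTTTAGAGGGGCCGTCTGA
Msi2 long transcript (chromosome 11): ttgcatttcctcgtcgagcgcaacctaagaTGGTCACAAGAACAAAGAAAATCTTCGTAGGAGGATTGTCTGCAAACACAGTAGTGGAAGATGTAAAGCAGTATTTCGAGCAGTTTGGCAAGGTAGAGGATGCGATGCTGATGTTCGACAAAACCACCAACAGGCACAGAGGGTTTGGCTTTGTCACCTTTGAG

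Both Msi2 transcripts fell, the long one more. The short transcript had 7.31, 7.84 and 7.31 RPKM in homozygous, 24.0, 21.5 and 24.9 RPKM in heterozygous and 25.3, 24.1 and 23.6 RPKM in control cortex. Its homozygous mean was 30.8% of the control mean, against 23.9% for the long transcript. The log2 ratio of short to long was higher by 0.38 in homozygous than in control cortex (SE 0.05, limma adjusted p 0.00333 over 5428 transcript pairs) and by 0.31 than in heterozygous cortex (SE 0.05, adjusted p 0.00916), and among all pairs 10.1% and 8.27% changed their ratio in those comparisons. In heterozygous against control cortex the ratio differed by 0.06 and was not called (adjusted p 0.820); 0% of all pairs were called there. How reads in the shared first exons were divided between the transcripts is not stated by the headers or labels, so the short transcript's level may partly repeat that of the long one. The short transcript's own last exons, 30.2 to 32.2 kb from the first start, lie within an intron of the long one. Reads of unspliced long RNA may therefore count there too, and whether the ratio of the spliced RNAs changed was not tested.

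**Figure D2:**
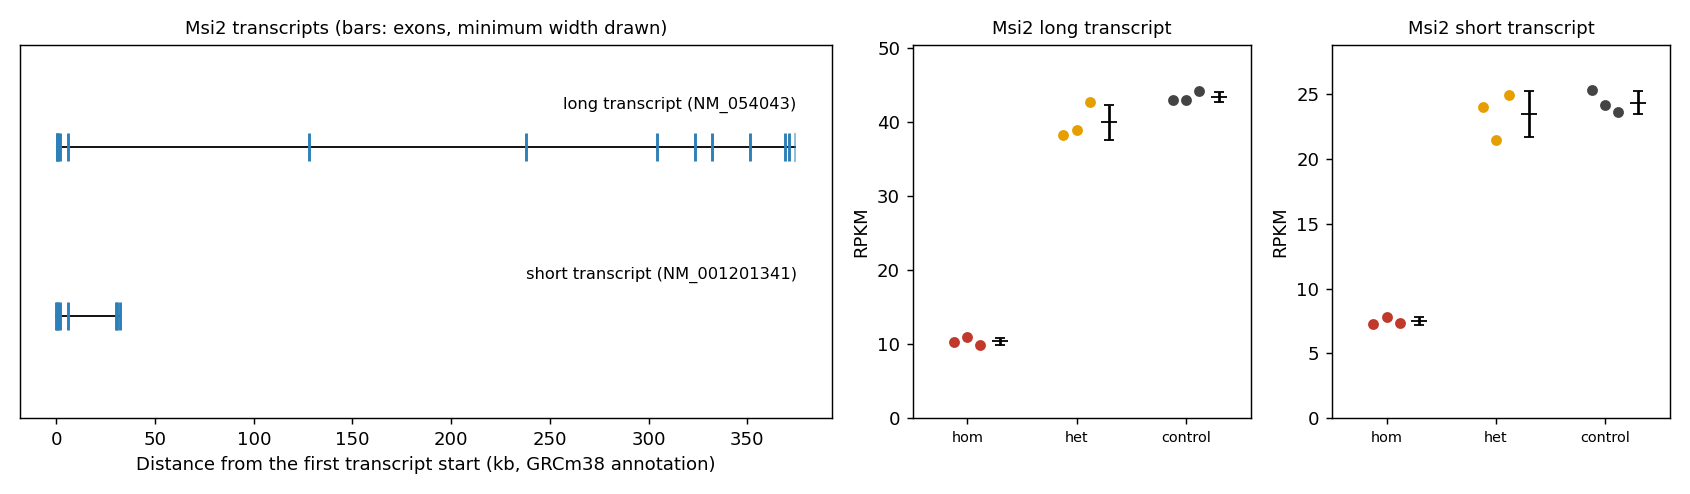
Left, exons of the long and the short Msi2 transcript against the distance in kb from the first transcript start, with exons drawn at a minimum width. Right, RPKM of each transcript by genotype, 1 point per embryo with the mean and SD of 3. Both fell in homozygous cortex, the long transcript to 23.9% and the short one to 30.8% of its control mean.

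Khdrbs2 fell by about as much as Msi2, Khdrbs3 fell slightly and Khdrbs1 did not pass the test. Khdrbs2, the splicing factor SLM1, had 1.77, 1.58 and 1.97 RPKM in homozygous, 8.74, 10.2 and 9.23 RPKM in heterozygous and 8.75, 9.50 and 9.81 RPKM in control cortex. The homozygous embryos stood clear of the rest, and the heterozygous and control embryos were mixed. The log2 change was -2.12 in homozygous against control (SE 0.09, limma adjusted p 3.33e-08) and -2.12 in homozygous against heterozygous cortex (SE 0.09, adjusted p 4.28e-08). Khdrbs3, the splicing factor SLM2, was much more abundant, with 58.0, 54.4 and 59.1 RPKM in homozygous, 76.1, 72.4 and 68.6 RPKM in heterozygous and 65.9, 69.7 and 73.0 RPKM in control cortex. Its fall was small but without overlap, at -0.28 against control (SE 0.06, adjusted p 0.00304) and -0.34 against heterozygous cortex (SE 0.06, adjusted p 0.00101). Khdrbs1, or Sam68, which is expressed in most tissues, had 57.0, 61.8 and 60.8 RPKM in homozygous, 63.1, 62.8 and 66.7 RPKM in heterozygous and 60.1, 69.3 and 68.8 RPKM in control cortex for NR_045036, which carries RefSeq's prefix for non-coding RNA although its GENCODE match has a coding sequence of 1329 bases. The lowest control embryo lay among the homozygous ones, and the log2 change of -0.14 (SE 0.06) did not pass (adjusted p 0.107). Without that embryo, control 1, it was -0.21 and passed (adjusted p 0.0167), and it passed narrowly with the sex of the embryo in the model (-0.17, adjusted p 0.0495). The other transcript of Khdrbs1, NM_011317, which RefSeq lists as coding, was at 90.0% of its control mean in homozygous cortex, close to the 90.6% of NR_045036, and did not pass when all 17725 transcripts were fitted (adjusted p 0.0590). The Khdrbs2 to Khdrbs1 ratio was 0.0255, 0.0310 and 0.0324 in homozygous against 0.137, 0.143 and 0.145 in control embryos, without overlap, and the exact two-sided permutation p was 0.1, again the smallest possible.

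The promoters of Msi2 and Khdrbs2, the pair with the deepest fall among members above 1 RPKM in homozygous cortex, are printed from RefSeq (GRCm38.p6), 5′ to 3′ on the gene's strand, from 250 bases before to 50 after the start, with CpG in capitals. The table holds 6 of the 10 members: Rbfox1, Rbfox3, Khdrbs2, Msi2, Ptbp1 and Ptbp2.
Msi2 promoter, chr11:88718180-88718479, minus strand: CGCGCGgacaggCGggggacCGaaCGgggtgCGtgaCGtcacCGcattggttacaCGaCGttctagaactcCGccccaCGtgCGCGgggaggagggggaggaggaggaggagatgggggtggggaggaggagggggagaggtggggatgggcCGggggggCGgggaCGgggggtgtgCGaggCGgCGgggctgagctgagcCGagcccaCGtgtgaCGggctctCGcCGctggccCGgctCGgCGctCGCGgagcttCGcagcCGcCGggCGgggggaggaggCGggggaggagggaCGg
Khdrbs2 promoter, chr1:32172472-32172771, plus strand: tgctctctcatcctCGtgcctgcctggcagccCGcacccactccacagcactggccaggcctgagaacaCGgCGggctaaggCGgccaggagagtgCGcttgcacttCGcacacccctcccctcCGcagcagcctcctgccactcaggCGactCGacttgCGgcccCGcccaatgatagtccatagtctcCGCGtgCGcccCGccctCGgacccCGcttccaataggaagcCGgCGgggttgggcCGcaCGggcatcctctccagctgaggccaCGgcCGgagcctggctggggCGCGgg

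The Msi2 promoter held 37 CpG and 76% G+C, and the Khdrbs2 promoter 26 CpG and 70.3% G+C, where the median over 32851 promoters of that length was 7 CpG. GGGCGG, read on both strands and itself holding a CpG, occurred 3 times in the Msi2 and 2 times in the Khdrbs2 promoter and in 35.7% of all promoters. CCAAT, read on both strands, occurred 1 and 2 times in them and in 37.4% of all promoters. TATAAA, found in 13.6% of all promoters, was in neither. Ptbp2, which changed less, and Ptbp1, which did not pass the test, had 36 and 22 CpG. Rbfox1 and Rbfox3, the least abundant members, had 7 and 4 CpG. The printed Msi2 entry lies nearest the start of the short transcript, 47 bases away. The Ptbp1 entry lies nearest NM_001077363 and the Rbfox3 entry at the start of the transcript that spans 271 kb, neither of which is the gene's most abundant transcript.

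The Rbfox genes split by level. Rbfox3 had 0.151, 0.101 and 0.194 RPKM in homozygous, 1.88, 1.58 and 1.21 RPKM in heterozygous and 1.06, 1.49 and 1.58 RPKM in control cortex. Every homozygous embryo was below all others, on about 28 to 58 reads by the estimated depth, while heterozygous and control embryos were mixed. On RPKM its homozygous mean was 10.8% of the control mean. On the log2(RPKM + 0.5) scale, which shrinks changes at such levels, the change was -1.53 (SE 0.14, limma adjusted p 9.47e-06), and it was -2.57 with a pseudocount of 0.1 and -1.04 with 1. Against heterozygous cortex it was -1.65 (SE 0.14, adjusted p 5.13e-06). All 6 Rbfox3 transcripts fell to between 10.5% and 11.2% of their control means. Ratios of 3 of them to the most abundant one were called higher in homozygous than in control cortex, by 0.26 to 0.36, but with no pseudocount, a setting added after seeing the data, these differences were 0.00 to 0.03 and none was called.

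Rbfox2, the most abundant Rbfox gene, had 24.5, 23.0 and 28.5 RPKM in homozygous, 29.3, 28.0 and 27.9 RPKM in heterozygous and 25.3, 26.6 and 29.1 RPKM in control cortex. Homozygous embryos 1 and 2 were below all others and embryo 3 lay among them. Its log2 change was -0.09 in homozygous against control cortex, with a 95% interval from -0.27 to 0.08 (limma adjusted p 0.389). Against heterozygous cortex it was -0.17 (adjusted p 0.128), and -0.25 (adjusted p 0.0199) without homozygous embryo 3. Its 9 transcripts lay between 91.6% and 93.8% of their control means in homozygous cortex, whether they spanned 69.4 kb or 228 kb, and none of their ratios to the most abundant one passed the test in any comparison. These transcripts cover 58.9% to 100% of the exonic bases of the most abundant one, so their values may share reads and do not compare the spans.

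Rbfox1, mutated in human neurodevelopmental disorders, had 1.33, 1.11 and 1.93 RPKM in homozygous, 2.92, 2.24 and 1.75 RPKM in heterozygous and 1.48, 1.99 and 2.22 RPKM in control cortex. The 3 genotypes overlapped. The log2 change was -0.30 in homozygous against control cortex (SE 0.18, 95% interval from -0.70 to 0.10, limma adjusted p 0.229), and -0.52 in homozygous against heterozygous cortex (SE 0.18, adjusted p 0.0486). That last call was lost without heterozygous embryo 1 (-0.36, adjusted p 0.176) or embryo 2 (-0.53, adjusted p 0.101). It was also lost without homozygous embryo 1 (-0.48, adjusted p 0.126) or embryo 2 (-0.39, adjusted p 0.158). The transcript over 1062 kb and the one over 340 kb, which share 79.9% of the exonic bases of the 340 kb one, gave 76.1% and 76.7% of their control means in homozygous cortex.

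Of the Ptbp pair, Ptbp2 fell and Ptbp1 did not pass the test. Ptbp2, the neuronal polypyrimidine tract-binding protein and the most abundant of the 10 genes, had 163, 155 and 149 RPKM in homozygous, 188, 194 and 188 RPKM in heterozygous and 205, 208 and 199 RPKM in control cortex. The 3 genotypes stood in steps without overlap. The log2 change was -0.39 in homozygous against control (SE 0.05, limma adjusted p 8.95e-05) and -0.29 in homozygous against heterozygous cortex (SE 0.05, adjusted p 0.00082). Ptbp1 had 19.1, 20.6 and 18.1 RPKM in homozygous, 19.0, 19.0 and 19.1 RPKM in heterozygous and 18.4, 20.9 and 20.8 RPKM in control cortex. Its groups overlapped, with a homozygous against control log2 change of -0.06 and a 95% interval from -0.20 to 0.09 (adjusted p 0.550). Its 3 transcripts were at 95.6% to 96.5% of their control means. The Ptbp2 to Ptbp1 ratio was 7.49, 8.24 and 8.55 in homozygous against 9.56, 9.98 and 11.1 in control embryos, without overlap (exact two-sided permutation p 0.1, the smallest possible; 0.2 adjusted over the 18 ratios). Of the other family ratios in homozygous against control cortex, Rbfox3 to Rbfox2 did not overlap either (exact p 0.1), and Rbfox1 to Rbfox2 and Khdrbs3 to Khdrbs1 overlapped (exact p 0.2 each).

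**Figure D3:**
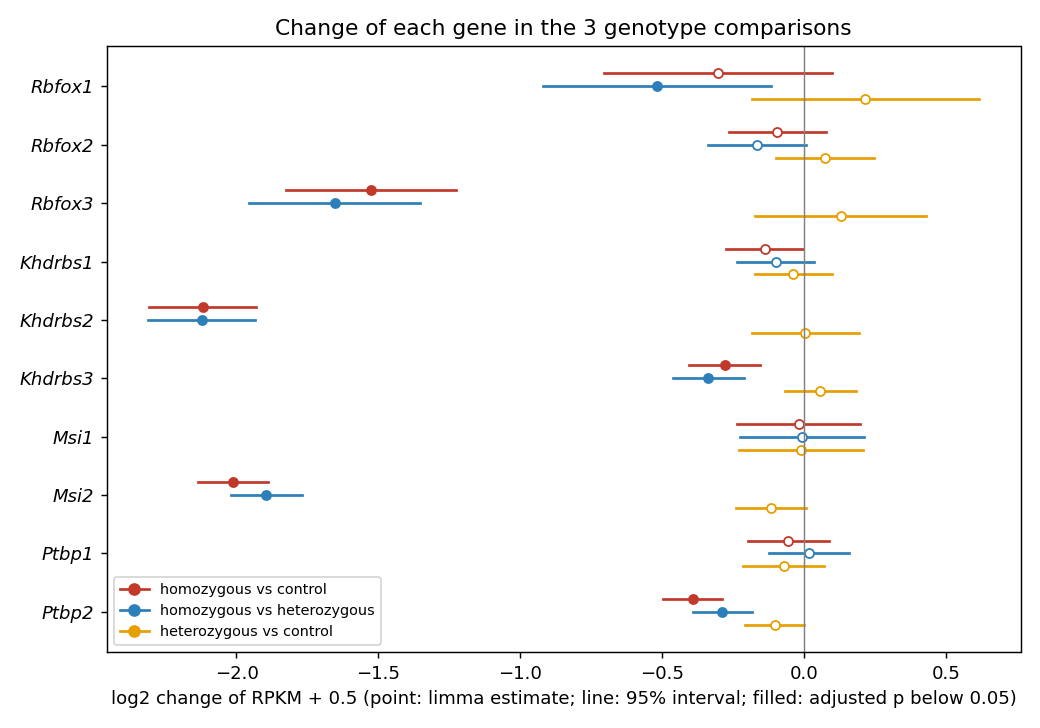
Log2 change of RPKM + 0.5 of each gene in homozygous against control, homozygous against heterozygous and heterozygous against control cortex, with 95% intervals from limma; filled points have an adjusted p below 0.05. In the comparisons with homozygous cortex Rbfox3, Khdrbs2 and Msi2 lie between -2.12 and -1.53, and in heterozygous against control cortex no point is filled.

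Heterozygous cortex differed little from control cortex in these genes. None of the 10 was called by limma, nor was any of the 12291 genes (0%), and none of the 10 had an unadjusted p below 0.05, against 706 (5.74%) of all genes. Msi2 and Ptbp2 were lower in all heterozygous than in all control embryos, where 7.52% of all genes were. Their log2 changes were -0.12 (95% interval from -0.24 to 0.01, adjusted p 0.879) and -0.10 (95% interval from -0.21 to 0.00, adjusted p 0.860). Khdrbs2, with a log2 change of 0.00 and an interval from -0.18 to 0.19, was at 100.3% of its control mean. The widest interval was that of Rbfox1, from -0.19 to 0.62.

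In homozygous against heterozygous cortex 6 genes were called lower, the 5 named for the comparison with controls and Rbfox1, and none higher, where 18.2% of all genes were called lower and 14.5% higher. Of the 10 genes 6 did not overlap, those 5 and Khdrbs1, all lower, where 24.1% of all genes did so. This comparison shares its homozygous libraries with the one against controls, so its values are no independent test of those. Under median centring the calls over all genes were 1832 lower and 2921 higher, and under quantile normalization 2115 lower and 2449 higher, against 2243 lower and 1788 higher as deposited. Of the 6 member calls, 5 held under median centring, where that of Rbfox1 was lost (limma adjusted p 0.0529), and 6 held under quantile normalization.

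The order of levels changed through the genes that fell. In homozygous cortex the means ran Ptbp2 155 ± 7.16, Khdrbs1 59.9 ± 2.53, Khdrbs3 57.1 ± 2.44, Rbfox2 25.3 ± 2.84, Ptbp1 19.3 ± 1.30, Msi1 11.1 ± 1.54, Msi2 10.4 ± 0.499, Khdrbs2 1.77 ± 0.198, Rbfox1 1.46 ± 0.423 and Rbfox3 0.149 ± 0.0462 RPKM (SD, n = 3). In control cortex they ran Ptbp2 204 ± 4.83, Khdrbs3 69.5 ± 3.53, Khdrbs1 66.1 ± 5.14, Msi2 43.4 ± 0.690, Rbfox2 27.0 ± 1.93, Ptbp1 20.0 ± 1.38, Msi1 11.2 ± 0.379, Khdrbs2 9.36 ± 0.546, Rbfox1 1.90 ± 0.378 and Rbfox3 1.38 ± 0.277 RPKM (SD, n = 3). Msi2 thus stood in the 7th place in homozygous and in the 4th in control cortex. Neighbours whose embryos overlapped were Khdrbs1 and Khdrbs3, Msi1 and Msi2, and Khdrbs2 and Rbfox1 in homozygous, Msi1 and Khdrbs2, and Rbfox1 and Rbfox3 in heterozygous, and Khdrbs3 and Khdrbs1, and Rbfox1 and Rbfox3 in control cortex.

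The genes differ widely in genomic length, taken here as the span of the longest listed transcript. The transcripts tested of Rbfox1 and Rbfox2 are shorter, at 340 kb and 70.0 kb, so Rbfox2 is counted below by a span that its tested transcript does not have. By the GENCODE M21 annotation Rbfox1 spans 1062 kb, Khdrbs2 486 kb, Rbfox3 420 kb, Msi2 374 kb, Rbfox2 228 kb, Khdrbs3 165 kb, Ptbp2 64.6 kb, Khdrbs1 39.1 kb, Msi1 26.1 kb and Ptbp1 10.1 kb. Of the 6 that span at least 100 kb, 4 were lower in homozygous than in control cortex (Khdrbs2, Rbfox3, Msi2 and Khdrbs3), where 43.2% of 1645 tested genes of that length were. Of the 4 shorter ones Ptbp2 alone was lower, where 16.3% of 10414 shorter genes were. At 200 kb or more it was 3 of 5 members, against 60.6% of 635 genes. The share at 200 kb or more is near its background, and with 6 and 4 members the other shares are coarse. In homozygous against heterozygous cortex it was 5 of 6 members at 100 kb or more (background 44.3%), 4 of 5 at 200 kb or more (62.4%) and 1 of 4 shorter ones (14.2%). Rbfox1, the longest, and Rbfox2 did not pass against control cortex, while against heterozygous cortex Rbfox1 was called narrowly (limma adjusted p 0.0486) and Rbfox2 was not. The interval of Rbfox1 against control cortex, from -0.70 to 0.10, contains both no change and the median log2 change of -0.44 over all genes at 200 kb or more, so it does not tell them apart. Within Msi2 the 32.2 kb transcript fell to 30.8% of its control mean, but its level may partly repeat that of the long transcript. Whether length has a part in the members' changes was not tested.

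**Figure D4:**
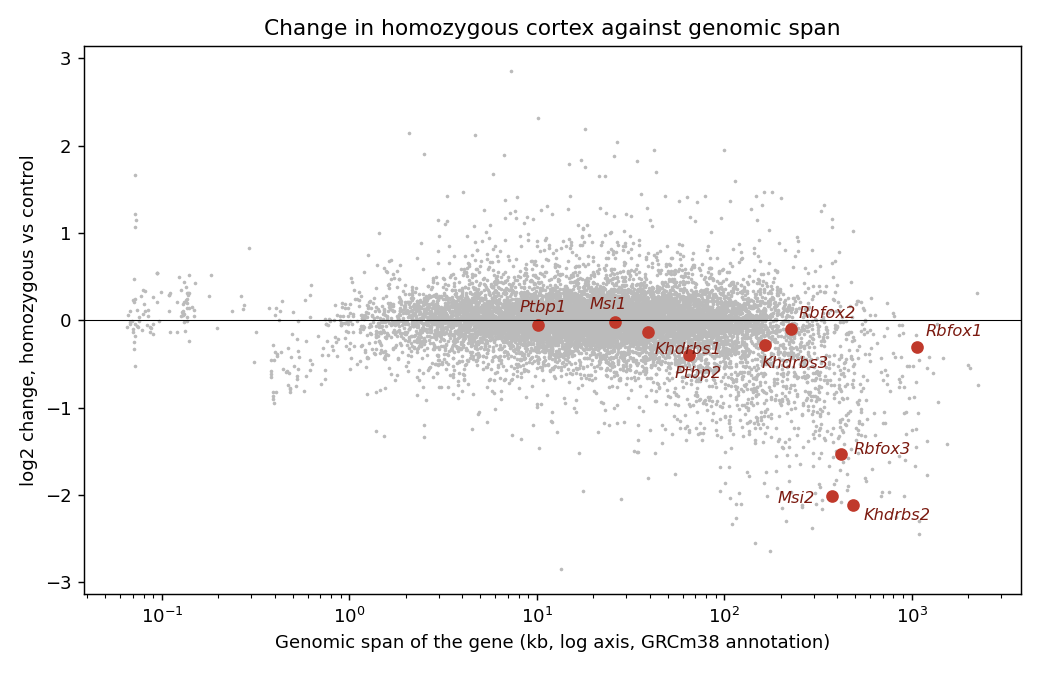
Log2 change of RPKM + 0.5 in homozygous against control cortex (vertical axis) against the genomic span of the gene in kb on a log axis (GRCm38 annotation), 1 point per tested gene with a span. The 10 named members are in red. Msi2, Khdrbs2 and Rbfox3 lie near the lower edge of the cloud at 374 to 486 kb. Rbfox1 at 1062 kb lies at -0.30. The span is that of the longest listed transcript, while the transcripts tested of Rbfox1 and Rbfox2 span 340 kb and 70.0 kb.

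For the most abundant member of each family the genes with the most similar pattern over the 9 libraries were looked up by Pearson correlation of log2(RPKM + 0.5), as a description in which the genotype difference is shared. Msi2 was followed most closely by Bbs9 (r = 0.9993), Cmss1 (0.9986) and Sema5b (0.9985). Bbs9, a subunit of the ciliary BBSome, averaged 3.42 RPKM in homozygous, 8.16 RPKM in heterozygous and 8.67 RPKM in control cortex. For Khdrbs3 they were Mpped1 (r = 0.993), Klhl2 (0.987) and Stk3 (0.986), for Ptbp2 Mxd3 (0.991), Cmc2 (0.991) and Ss18l2 (0.990), and for Rbfox2 Dnajc6 (0.974), Unc5a (0.972) and Zfp790 (0.970).

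Of 19 other splicing regulators of neural tissue tested among 22 listed, 5 were lower, 2 were higher and 12 were not called in homozygous against control cortex, with a median log2 change of -0.06. These counts are near those over all genes, of which 19.9% were lower and 14.4% higher. Elavl2, a neuronal Hu protein, averaged 23.0 RPKM in homozygous and 39.3 RPKM in control cortex (log2 change -0.76, limma adjusted p 1.44e-05). Raver2, a partner of Ptbp1, averaged 2.26 RPKM in homozygous and 3.53 RPKM in control cortex (-0.55, adjusted p 4.63e-04), and Celf4 5.34 RPKM in homozygous and 8.92 RPKM in control cortex (-0.71, adjusted p 0.00202). The nuclear matrix protein Matr3, which binds Ptbp1, averaged 435 RPKM in homozygous and 291 RPKM in control cortex (0.58, adjusted p 3.47e-06). Ptbp3, the third Ptbp gene, averaged 8.37 RPKM in homozygous and 8.72 RPKM in control cortex (-0.06, adjusted p 0.612). Of the 3 DBHS proteins, Sfpq fell, Pspc1 was higher in homozygous cortex, at 262 RPKM against 102 RPKM in control cortex (1.36, adjusted p 3.33e-08), and Nono did not pass (0.05, adjusted p 0.693).

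Among 16 genes listed as targets of these proteins, 8 were lower and 2 higher in homozygous than in control cortex, where 19.9% of all genes were lower and 14.4% higher. Their median log2 change was -0.24, and Ptbp2 is both a member and on this list. Gene levels do not show splicing. Numb, whose translation Musashi proteins repress, averaged 2.88 RPKM in homozygous and 3.51 RPKM in control cortex (log2 change -0.24, limma adjusted p 0.0211). Robo3, an axon guidance receptor, averaged 4.06 RPKM in homozygous and 0.788 RPKM in control cortex (1.83, adjusted p 1.08e-07). The reelin adaptor Dab1 averaged 5.61 RPKM in homozygous and 16.2 RPKM in control cortex (-1.45, adjusted p 1.46e-07). Nrxn3, a presynaptic adhesion protein with an exon that Khdrbs proteins regulate, averaged 0.160 RPKM in homozygous, 1.06 RPKM in heterozygous and 1.29 RPKM in control cortex (-1.42, adjusted p 3.92e-05). Like Rbfox3, it entered the fit only through its heterozygous and control levels, and the added 0.5 shrinks its change.

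The lists of cell type markers are set beside the 19.9% of all genes lower and 14.4% higher in homozygous than in control cortex. No marker was called in heterozygous against control cortex. The RPKM ranges are sums over every listed gene, tested or not, which is 7 genes each for the Cajal-Retzius and the GABAergic list. Of 8 intermediate progenitor markers 3 were lower in homozygous than in control cortex, among them Neurog2, at 24.5 RPKM against 62.4 RPKM in control cortex, and the list summed to 118 to 123 RPKM in homozygous, 167 to 182 RPKM in heterozygous and 164 to 202 RPKM in control embryos. Of 14 radial glial markers 4 were lower and 2 higher (1880 to 1965 RPKM in homozygous, 1936 to 2196 RPKM in heterozygous and 1992 to 2168 RPKM in control embryos), and of 14 neuronal markers 2 were lower and 2 higher (651 to 828 RPKM in homozygous, 777 to 886 RPKM in heterozygous and 754 to 874 RPKM in control embryos); both lists are near the shares over all genes, with 8 and 10 markers not called. Of 6 tested Cajal-Retzius markers 4 were higher (36.6 to 40.8 RPKM in homozygous, 27.0 to 30.1 RPKM in heterozygous and 24.8 to 29.8 RPKM in control embryos), as were 4 of 7 microglial markers (16.3 to 22.8 RPKM in homozygous, 13.2 to 15.95 RPKM in heterozygous and 12.3 to 14.0 RPKM in control embryos). Of 4 tested GABAergic markers 1 was higher (8.79 to 12.7 RPKM in homozygous, 6.10 to 10.1 RPKM in heterozygous and 6.72 to 14.9 RPKM in control embryos), as was 1 of 7 endothelial and pericyte markers (73.0 to 93.5 RPKM in homozygous, 70.3 to 75.99 RPKM in heterozygous and 67.8 to 87.8 RPKM in control embryos). Of 6 erythroid markers 2 were lower (1814 to 2209 RPKM in homozygous, 1758 to 2604 RPKM in heterozygous and 2212 to 2826 RPKM in control embryos), and none of 8 choroid plexus and meningeal or of 2 tested glial markers passed. No marker was at 0 in all embryos of a genotype. Whether the markers that changed have a part in the members' changes was not tested. By Xist and Y-linked genes the embryos were 1 female and 2 males in homozygous, 3 males in heterozygous and 2 females and 1 male in control cortex, and with sex in the model the 5 calls against control cortex held.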

How the data were processed

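RNA from embryonic cortex was sequenced in 9 libraries after removal of ribosomal RNA, per the labels' protocols. The submitters' processing notes name CASAVA 1.8.2, TopHat 1.4.1 and the build mm9. The authors deposited 1 table per library of RPKM values for 30978 RefSeq transcripts, per the file headers; the program that computed them, its use of strand and its sharing of reads between transcripts are not stated there. Overlapping genes and transcripts that share exons are therefore uncertain. The files hold no counts. Steps between low values put the depth near 168 M for the shallowest and 204 M for the deepest library (M, 1e6 reads). Only a preset range of depths was searched and lower ones were not tried, so these depths and the read numbers from them are rough. At these depths 68.6% to 72.4% of values below 5 reads came within 0.1 of a whole number, and no count test was run. Names came from a RefSeq gene table (30503 transcripts) and GENCODE M21 (182), and 293 transcripts had none. Spans, exons and coding sequences came from GENCODE M21 on GRCm38, another build than the authors', so no coordinates were joined to the values.

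A single limma model (3.58.1, R 4.3.3) by genotype, with its mean-variance trend, took log2(RPKM + 0.5) of 1 transcript per gene for the 12291 genes averaging 0.5 RPKM or more in the 9 libraries. The same fit was run on the ratios of 5428 transcript pairs of 2989 genes. Ratios within families were compared by two-sided exact permutation tests, adjusted over 18. The limma fit by gene was tested on simulated data for homozygous against control cortex, and the transcript ratios, permutation tests and depth estimate were not. Alternatives were other pseudocounts, filters, scalings and transcript choices, a sex term, a replicate block, fits of 2 groups and each embryo left out. The members, lists, tests and named genes (all members; the 3 DBHS genes; of each list up to 4 genes with the smallest adjusted p and its first gene, of which those that bear on the members are printed) were chosen with earlier results of these data known. Embryos are taken as the replicates, so p-values measure the spread between the libraries of a genotype. No 2 libraries of a genotype were alike (SD of log2 differences 0.148 to 0.224), which does not by itself show separate embryos.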

Additional observations from a re-analysis of the deposited data

How the results depend on the processing

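The falls of Msi2, Khdrbs2, Khdrbs3 and Ptbp2 in homozygous cortex were called in both comparisons under every alternative run, and that of Rbfox3 under each but the filter at 2 RPKM, which removes it. In homozygous against control cortex their log2 changes lay between -2.05 and -1.95 for Msi2, -2.34 and -1.90 for Khdrbs2, -0.32 and -0.21 for Khdrbs3, -0.43 and -0.33 for Ptbp2, and -2.57 and -1.04 for Rbfox3. Called genes rose to 2974 (homozygous against control, higher) and 2921 (against heterozygous, higher) with median centring, and 1 gene was called lower in heterozygous against control cortex when only those groups were fitted. The number of member transcript pairs with a changed ratio was 4 against control and 5 against heterozygous cortex; with a pseudocount of 0.1 each was 3, with a pseudocount of 1 that against control cortex was 6, and both were 1, the Msi2 pair, with no pseudocount, an alternative added after seeing the data. In heterozygous against control cortex, family ratios near 0 turned sign when an embryo was left out: Ptbp2 to Ptbp1 ranged from -0.0784 to 0.0295, Rbfox3 to Rbfox2 from -0.0340 to 0.169 and Khdrbs2 to Khdrbs1 from -0.0310 to 0.0801. Besides the embryos already named, the call of Rbfox1 in homozygous against heterozygous cortex was lost with no filter, median centring, 2 groups, sex in the model, no trend and the replicate block (adjusted p 0.0681). With the replicate block 2554 genes were lower and 1913 higher in homozygous against control cortex, 5 member transcript pairs changed against control cortex, and no other member's call changed; deviations of same-numbered libraries correlated by -0.04 to 0.40, so the numbers are not taken as pairs. Rbfox3, at 28 to 58 estimated reads in homozygous embryos, is the member whose size of change depth limits most.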
